A study of Rattus norvegicus with 241 samples.

Results

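Fibroblasts of the mammary gland build the collagen matrix around the ducts and send growth factors, Wnt ligands and cytokines to the epithelium and to immune cells. In many tissues PI16 and DPP4 mark a fibroblast population of the outer connective tissue layers and vessel sheaths, and fibroblasts without them lie closer to the parenchyma. TGFβ, read through the receptor kinase TGFBR1 and SMAD proteins, is a main inducer of matrix, protease inhibitor and contractile genes in such cells. The cells described here are the fibroblasts of whole SD rat glands in which neither PI16 nor DPP4 was detected, and the question is what a short treatment with a TGFBR1 inhibitor did to their number and their RNA.

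A cell was taken when it held at least 5 unique transcript molecules (UMIs) summed over COL1A1, COL3A1, DCN and PDGFRA, at most 1 UMI summed over PTPRC, PECAM1, RGS5 and KRT14, and 0 UMIs of PI16 and DPP4. PECAM1 was not analysed here, so that 9 of the 10 genes were used and the limit on other cell types rested on PTPRC, RGS5 and KRT14. These cells were thus chosen by their measured UMIs of those genes. The rule took 9703 of 103524 cells, or 9.37%. A further 3549 cells passed the same limits and held a UMI of PI16 or DPP4, so that the PI16/DPP4-negative cells made up 73.2% of 13252 fibroblasts.

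The cells came from unsorted mammary glands of virgin female SD rats, an outbred strain, 3 given vehicle (controls 1, 2 and 4) and 6 given the inhibitor (TGFBRi 1, 2, 4, 6, 11 and 14). Vehicle or 75 mg/kg of the compound that the labels name LY22157299 was gavaged 2 times a day on 10 consecutive days, from about 24 days of age, and glands were taken at day 0, when dosing ended. Each rat is 1 library and 1 replicate. The libraries held 7900 to 16424 cells and 43110875 to 92699378 UMIs, of which 3332747 to 16464847 came from the fibroblasts described here. Pairs of libraries shared 88 to 284 cell barcodes, at most 2.51% of the smaller library, and at most 5 of the barcodes of these fibroblasts.

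Fibroblast markers that the rule did not read were looked at in these cells and in leukocytes. That comparison cannot tell fibroblasts from vascular smooth muscle cells, pericytes or Schwann cells. LUM, a collagen-binding proteoglycan, had a UMI in 68.7% of the cells, against 2.02% of 22877 cells with 2 or more UMIs of PTPRC, which encodes the leukocyte antigen CD45. SERPINF1 was found in 70.8% against 2.91%, MFAP5 in 61.3% against 1.84% and PDGFRB in 30.1% against 0.804%. The PTPRC cells were shallower, with a median of 3395 UMIs against 5687. COL1A1, the most abundant of the genes read by the rule, still had a UMI in 20.4% of the PTPRC cells, and the median depths of both sets differed as given. The PI16/DPP4-negative fibroblasts were mixed at the low end: 11.7% of them held 5 to 9 UMIs of the 4 markers and 67.7% held 50 or more. At the threshold itself, 379 cells lay just inside with 5 UMIs, of which 123 also held 2 or more UMIs of the endothelial list, and 701 lay just outside with 4, of which 198 did.

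Some of the cells held UMIs of another cell type's marker list. At least 10 UMIs of the mural list (vascular smooth muscle and pericytes, such as NOTCH3 and MYH11) were held by 6.74% of the cells, of the Schwann cell list by 6.45%, of the leukocyte list by 4.50%, of the adipocyte list by 4.11%, of the epithelial list by 3.27% and of the endothelial list by 2.11%. In the adipocyte list CFD had a UMI in 22.1% of the cells, but ADIPOQ in 0.794% and PLIN1 in 0.567%. In the mural list ABCC9 had one in 16.0% of them and in 35.8% of PI16/DPP4-positive fibroblasts, and MYH11 in 11.9% and 2.73%. A count of list UMIs is thus not a count of another cell type's RNA alone. The main comparison of TGFBRi with control was repeated in 6286 core cells, chosen after the data were seen. These held at least 20 UMIs of the fibroblast markers and fewer than 10 UMIs of every other list.

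PI16/DPP4-negative fibroblasts made up 5.60%, 8.62% and 22% of all cells in controls 1, 2 and 4, and between 5.48% and 10.1% in the TGFBRi rats, with a median of 7.74%. The groups overlapped, and control 4 stood apart from the other 8 rats. The means were 12.1% ± 8.73 (SD, n = 3) and 7.97% ± 1.61 (SD, n = 6), an exact two-sided permutation test over 84 assignments gave p = 0.286, and the smallest p this design allows is 0.0119. Without control 4 the control mean was 7.11% and the difference changed sign, to 0.865 percentage points higher with TGFBRi (exact p = 0.607). A share of cells in a digested gland counts what the digestion released, and it also falls when another cell type rises.

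Among fibroblasts, the PI16/DPP4-negative share was 78.3%, 73% and 71.9% in the controls and 69.8% to 79.5% with TGFBRi. The means of 74.4% ± 3.46 (SD, n = 3) and 73.4% ± 3.78 (SD, n = 6) differed by less than the spread between rats (exact two-sided permutation p = 0.726). Negative cells were shallower than positive ones, with medians of 5687 and 9487 UMIs, and shallow cells miss PI16 and DPP4 more often. When every cell with at least 1000 UMIs was thinned to 1000, the negative share averaged 87.7% and 88.3% and the groups still overlapped. Cells with fewer UMIs, 1046 to 2025 per rat, were left out. Depth per cell did not separate the groups: median UMIs averaged 5774 ± 896 (SD, n = 3) in controls and 6051 ± 908 (SD, n = 6) with TGFBRi (exact permutation p = 0.702).

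**Figure D1:**
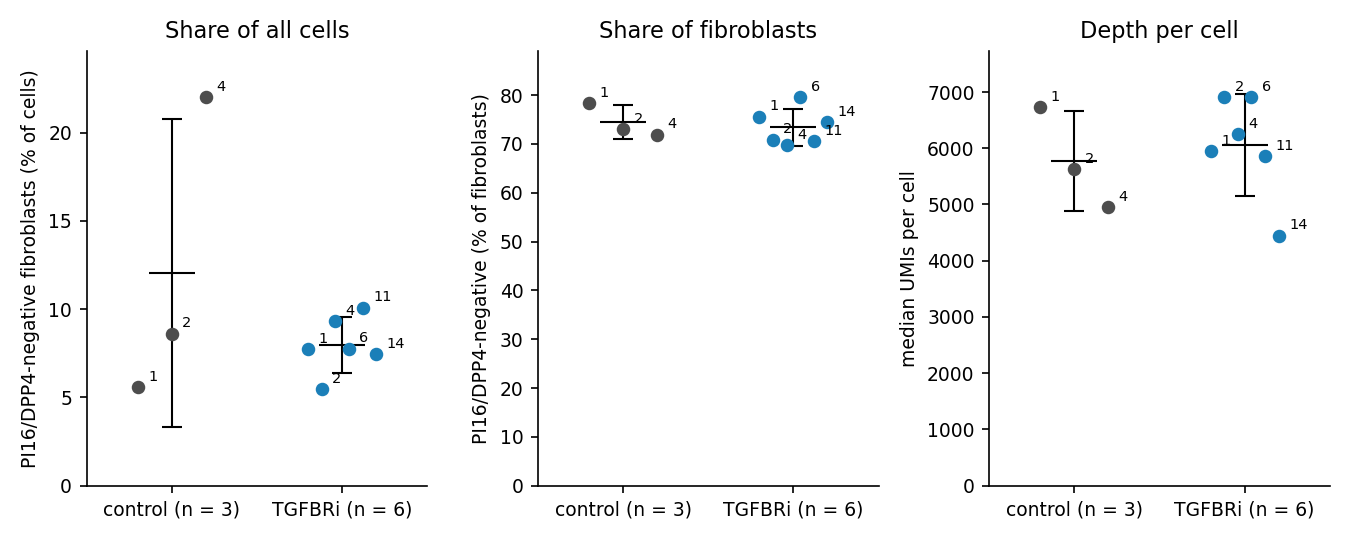
PI16/DPP4-negative fibroblasts as a percent of all cells (left) and of all fibroblasts (middle), and their median UMIs per cell (right), with 1 point per rat, numbered as in the labels, and bars for the mean and SD of 3 control and 6 TGFBRi rats. Control 4, at 22% of cells, lies above all other rats, while the shares among fibroblasts run from 69.8% to 79.5% in both groups together.

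The RNA of these cells did separate the groups. UMIs were summed per rat, and 15194 genes with at least 10 UMIs over the 9 rats were tested by edgeR's quasi-likelihood test with TMM scaling. At an adjusted p of 0.1 or less, 4899 genes were called, 32.2% of those tested, with 2341 higher (15.4%) and 2558 lower (16.8%) with TGFBRi. The CPM of 3774 genes, or 24.8%, did not overlap between the groups. A change of 2-fold or more was seen in 769 of the higher and 809 of the lower genes. In the core cells 4423 of 14001 genes were called (31.6%), including 3863 of the 4899. Without control 4, 5107 genes were called (34.4%), including 4043 of the 4899. Leaving out possible doublets, cells with 2 or more UMIs of any other list or in the top 5% by UMIs, kept 4169 cells and called 3778 genes, including 3269 of the 4899. Scaling by library totals alone moved the median log2 difference of all genes from 0.04 to 0.21 and the share of higher genes among those called from 47.8% to 67%, so that directions here are relative to TMM scaling. Levels below are CPM, the summed UMIs of a gene per 1e6 UMIs after TMM scaling.

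On the first principal component, with 43.5% of the variance, controls lay between 38.5 and 53.1 and TGFBRi rats between -41.2 and -8.07. The second component (17.1%) split the treated rats: rats 1, 2 and 14 lay between 14.7 and 23.7 and rats 4, 6 and 11 between -35.5 and -25.3. No label names a batch that matches this split. Correlations of log CPM were 0.953 to 0.979 among controls, 0.944 to 0.982 among TGFBRi rats and 0.901 to 0.95 between the groups.

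**Figure D2:**
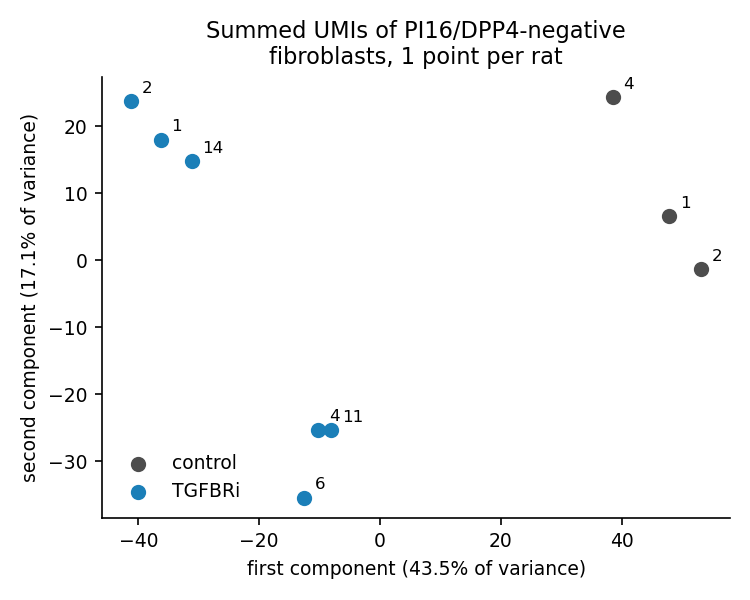
First and second principal components of the summed UMIs of PI16/DPP4-negative fibroblasts, in arbitrary units, with 1 point per rat, numbered. The 3 controls lie at the right, and the 6 TGFBRi rats fall into a group of rats 1, 2 and 14 and a group of rats 4, 6 and 11.

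Matrix-degrading enzymes held the largest decreases. Of 28 tested proteases and their inhibitors, 10 were lower and 3 higher with TGFBRi, against 16.8% and 15.4% of all genes, and 10 were lower and 1 higher in the core cells, against 17.5% and 14.1%. MMP10, a stromelysin, was named for its size of change and is not in the list. It stood at 54, 114.7 and 11.3 CPM in controls 1, 2 and 4 and at 0.799 to 2.35 CPM (median 1.18) in the TGFBRi rats. The groups did not overlap, and the level was 40.7-fold lower (log2 difference -5.35 ± 0.58 SE, adjusted p = 0.000105). Control 2 was the highest of the 3, and without it the difference was -4.46. MMP3, the other stromelysin, stood at 89.999, 206.0 and 25 CPM in controls and at 1.41 to 5.94 CPM (median 2.87) with TGFBRi, again with no overlap. It was 32.8-fold lower (-5.03 ± 0.53 SE, adjusted p = 9.14e-05), and -4.14 without control 2. MMP13, an interstitial collagenase, was low throughout, at 3.75, 12.2 and 5.19 CPM in controls and at 0 to 1.48 CPM (median 0) with TGFBRi. The highest treated value was that of rat 4, and the fitted log2 difference of -4.24 moved to -7.08 without that rat and to -3.62 without control 2. Without possible doublets the differences were -6.54 for MMP10, -6.24 for MMP3 and -7.19 for MMP13, and in core cells -6.05 for MMP10 and -8.26 for MMP13.

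TIMP1 and PLAU of the list fell with narrower spread, while SERPINF1, also in the list, was not called (-0.18, adjusted p = 0.496). TIMP1, an inhibitor of matrix metalloproteinases and a known TGFβ-induced gene, stood at 3735, 3730 and 3574 CPM in controls and at 1051 to 2153 CPM (median 1539) with TGFBRi, 2.40-fold lower (-1.26 ± 0.18 SE, adjusted p = 0.000514). PLAU, urokinase, stood at 363.0, 492.2 and 420.8 CPM against 105.9 to 211.7 CPM (median 194.3), 2.36-fold lower (-1.24 ± 0.19 SE, adjusted p = 0.000976). In neither gene did the groups overlap. MMP19 fell by 0.89, CTSB by 0.50 and CTSL by 0.47 on the log2 scale, the last pair being lysosomal proteases. ADAMTS5, an aggrecan-cleaving protease, rose by 0.94 ± 0.15 SE (adjusted p = 0.00116), from 24.3, 26.4 and 24.9 CPM to between 38.2 and 58.5 CPM (median 47.9).

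No gene of the collagen list was called lower. Of its 19 tested genes, which leave out those read by the rule, 4 were higher and 0 lower, 8 higher and 0 lower without control 4, and 1 higher in the core cells. The 4 are 21.1% of the list, against 32.2% of all genes, and with library totals 7 were higher. COL5A2, a regulator of fibril diameter, stood at 418.0, 467.6 and 590.7 CPM in controls and 585.3 to 696.1 CPM (median 635.3) with TGFBRi, and the groups overlapped in control 4 (0.37 ± 0.13 SE, adjusted p = 0.0588). In core cells its difference was 0.22 (adjusted p = 0.302), and it also lost its call without control 1, control 2 or TGFBRi 1. COL16A1 was higher by 0.37 in all cells (adjusted p = 0.0411) and by 0.20 in core cells (adjusted p = 0.294), and by 0.25 without control 1, where the call was lost. COL27A1 was higher by 0.70 ± 0.23 SE (adjusted p = 0.0459), with overlap, and was not called in core cells (0.56, adjusted p = 0.161), without possible doublets (0.44, adjusted p = 0.339) or without control 1 (0.70, adjusted p = 0.109) or 4 (0.43, adjusted p = 0.157). COL10A1, the fourth gene called, averaged 1.33 UMIs per rat, with 0 CPM in all 3 controls and 0 to 0.468 CPM with TGFBRi, so that no fold change is given. COL1A2, which pairs with COL1A1 in type I collagen, stood at 35.2, 43.8 and 89.3 CPM against 65.5 to 113.1 CPM (0.64 ± 0.27 SE, adjusted p = 0.104), and at a log2 difference of 1.13 without control 4 (adjusted p = 0.00305). The control mean of COL1A2 was 56.1 CPM against 28012 CPM for COL1A1, and whether its reads were counted in full was not tested. COL1A1 and COL3A1, which chose the cells and get no test, stood at 21241, 21252 and 41544 CPM and at 14848, 16422 and 27478 CPM in controls. With TGFBRi they ran from 27370 to 34030 CPM and from 21070 to 25258 CPM. PDGFRA, also part of the rule, stood at 95.9, 128.5 and 94.1 CPM in controls and at 135.5 to 181.7 CPM with TGFBRi.

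Other matrix genes moved both ways. Of 38 tested glycoproteins and proteoglycans, 5 were higher and 4 lower, with library totals 11 were higher and 2 lower, and in core cells 3 and 3. SPON1, spondin 1, rose from 168.1, 141.6 and 231.5 CPM to between 252.5 and 333.6 CPM (0.64 ± 0.16 SE, adjusted p = 0.0136). EFEMP1, fibulin 3, rose by 0.89 ± 0.25 SE (adjusted p = 0.0245), without overlap. THBS2, a thrombospondin that binds matrix proteases, stood at 760.5, 774.0 and 407.4 CPM in controls and at 244.6 to 413.1 CPM with TGFBRi, with an overlap in control 4 (-0.90 ± 0.21 SE, adjusted p = 0.00865). Of 23 genes that process and crosslink collagen, 3 were higher and 3 lower, with library totals or without control 4 it was 7 higher and 2 lower, and in core cells 1 and 3. P4HA3, a prolyl hydroxylase subunit, fell from 8.10, 11 and 3.93 CPM to between 1.98 and 3.11 CPM (-1.57 ± 0.30 SE, adjusted p = 0.00311). With TMM scaling both counts lie below the 32.2% of all genes called.

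Textbook TGFβ targets were lower more often than higher. Of 26 tested targets and feedback genes, 8 were lower, against 16.8% of all genes, and 2 higher, against 15.4%, with a median log2 difference of -0.23 against 0.04 over all genes, and 10 were lower and 2 higher in the core cells. With library totals 7 were lower and 4 higher, and without control 4 it was 8 and 4. CCN2, connective tissue growth factor, stood at 96.9, 36.9 and 29.7 CPM in controls and at 6.32 to 27.7 CPM (median 15.7) with TGFBRi. It was 3.58-fold lower (-1.84 ± 0.42 SE, adjusted p = 0.00828), and it fell by 1.16 without control 1, which held the highest value. PMEPA1, a feedback inhibitor that binds SMADs, fell from 71.5, 68.7 and 51.6 CPM to between 29.7 and 49 CPM (-0.72 ± 0.17 SE, adjusted p = 0.0103). TGIF1, a SMAD corepressor, fell by 0.89 ± 0.17 SE (adjusted p = 0.00316).

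The cytokines of the target list fell furthest. LIF stood at 97.6, 112.0 and 33.9 CPM in controls and at 10.5 to 24.6 CPM (median 14.2) with TGFBRi, 5.03-fold lower (-2.33 ± 0.32 SE, adjusted p = 0.000430). IL11 stood at 50.8, 62.4 and 9.75 CPM and at 2.67 to 11.4 CPM, with an overlap in control 4 (-2.62 ± 0.50 SE, adjusted p = 0.00314). SKI, a repressor of SMAD transcription, was 2.01-fold higher without overlap (1.01 ± 0.18 SE, adjusted p = 0.00248), and JUNB rose by 0.76 ± 0.17 SE (adjusted p = 0.00771).

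Components of the pathway itself moved in both directions, with 7 of 27 higher and 6 lower, or 48.1% called against 32.2% of all genes. With library totals the balance was 11 higher and 3 lower. Among ligands, TGFB1 fell from 76.6, 61.1 and 71.9 CPM to between 44.7 and 55.5 CPM (-0.48 ± 0.12 SE, adjusted p = 0.0120). TGFB2 rose from 27.4, 28.9 and 22.6 CPM to between 33.8 and 53.5 CPM (0.77 ± 0.18 SE, adjusted p = 0.00868). TGFB3 was higher by 0.78 in all cells (adjusted p = 0.00659) but by 0.24 in core cells (adjusted p = 0.379). INHBA, the activin A subunit, fell from 82.8, 118.6 and 41.2 CPM to between 10.5 and 21.1 CPM (median 15.6), 5.24-fold (-2.39 ± 0.28 SE, adjusted p = 0.000168). GDF15, a stress-induced member of the family, was 3.79-fold lower, from 333.3, 185.6 and 183.1 CPM to between 31.8 and 89.3 CPM.

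The coreceptor TGFBR3 and the type I receptors ACVRL1 and ACVR1B rose, while 14 of the 27 genes, the inhibitor's own target among them, were not called. TGFBR3, betaglycan, which presents TGFβ2 to the signalling receptors, stood at 126.9, 99.2 and 96.5 CPM in controls and at 198.8 to 341.4 CPM (median 248.8) with TGFBRi, 2.40-fold higher (1.26 ± 0.20 SE, adjusted p = 0.00106). ACVRL1 rose by 0.80 ± 0.18 SE and ACVR1B by 0.86 ± 0.21 SE, both without overlap. TGFBR1 stood at 22.2, 18.8 and 12.1 CPM against 14.6 to 21.1 CPM (0.09 ± 0.19 SE, adjusted p = 0.762), and TGFBR2 at 93.7, 96.4 and 65.1 CPM against 70.3 to 99.6 CPM (0.00 ± 0.16 SE, adjusted p = 0.994). The signs of both turn with the setting. GDF10, a ligand of the BMP3 type, rose from 16.0, 16.7 and 15.4 CPM to between 24.9 and 32.4 CPM (0.86 ± 0.13 SE, adjusted p = 0.000824). Of 20 BMP ligands, antagonists and ID genes, 8 were lower and 1 higher, against 16.8% and 15.4% of all genes. NOG, the BMP antagonist noggin, was low and fell from 4.35, 3.37 and 1.82 CPM to between 0.228 and 1.61 CPM (-2.02 ± 0.51 SE, adjusted p = 0.0132), and by 3.09 without possible doublets.

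Of 18 contractile genes, 5 were lower and 0 higher, or 27.8% called against 32.2% of all genes. In core cells 7 were lower, without control 4 it was 8, and with library totals 3. CNN3, calponin 3, fell from 573.7, 531.7 and 350.6 CPM to between 277.9 and 337.6 CPM (-0.66 ± 0.16 SE, adjusted p = 0.00984). ACTA2, smooth muscle actin, stood at 1613, 1076 and 495.9 CPM in controls and at 488.6 to 1467 CPM with TGFBRi (-0.19 ± 0.34 SE, adjusted p = 0.732), and its sign turned without control 1. TAGLN stood at 1646, 1089 and 1261 CPM against 526.0 to 1421 CPM (-0.54 ± 0.24 SE, adjusted p = 0.121), and at -1.18 in core cells (adjusted p = 0.00994). Genes of the mural list touch these values: 5.47% to 11.4% of the cells in controls and 3.47% to 10.1% with TGFBRi held 10 or more UMIs of it. The 1 of its 8 genes called lower was CNN1, calponin 1, which is also in the contractile list. CNN1 held the largest decrease there, from a mean of 125.5 to 44.6 CPM (-1.49, adjusted p = 0.0217). The part of mural cells in the contractile counts was not tested beyond the core cells.

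The chemokine, cytokine and complement list held more lower genes than any of the other lists. Of its 32 tested genes, 14 were lower and 4 higher, against 16.8% and 15.4% of all genes, 13 lower and 4 higher in core cells, and 13 lower and 5 higher without control 4. CXCL1, which draws neutrophils, stood at 15595, 15873 and 6803 CPM in controls and at 1825 to 4005 CPM (median 3272) with TGFBRi, 3.99-fold lower (-2.0 ± 0.27 SE, adjusted p = 0.000388). CCL2, which draws monocytes, stood at 9571, 13797 and 6390 CPM against 2704 to 4744 CPM (median 3917), 2.58-fold lower (-1.36 ± 0.23 SE, adjusted p = 0.00151). IL6 stood at 798.6, 879.7 and 285.8 CPM against 147.3 to 232.1 CPM (median 163.6), 3.72-fold lower (-1.89 ± 0.27 SE, adjusted p = 0.000538). Without possible doublets the difference of CXCL1 was -2.72. In all 3 genes every control lay above every treated rat, and control 4 was the lowest control.

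Further members of the list fell by less or from lower levels. CXCL6 fell from 46, 140.4 and 67.2 CPM to between 2.51 and 12.2 CPM (-3.41 ± 0.43 SE, adjusted p = 0.000303). CXCL2 fell by 1.89 in all cells, from 1402, 1170 and 661.9 CPM to between 162.6 and 441.8 CPM, and by 3.73 in core cells. Without possible doublets the difference of CXCL2 was -4.50 and that of CXCL6 -4.70. CXCL16 was 2.73-fold lower, IL1R1, the interleukin 1 receptor, 2.90-fold, CCL7 1.98-fold, IL33 1.87-fold and CSF1, the macrophage growth factor, 1.73-fold, each without overlap. CSF2, named for its size of change and not in the list, stood at 60.5, 158.0 and 55.2 CPM in controls and at 1.13 to 13.6 CPM (median 7.80), 11.9-fold lower (-3.58 ± 0.48 SE, adjusted p = 0.000385), and -2.92 without control 2. IL34, another ligand of the CSF1 receptor, rose by 0.71 ± 0.17 SE (adjusted p = 0.0107).

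Signals to the epithelium moved both ways, with 8 of 31 higher and 7 lower, against 15.4% and 16.8% of all genes, with library totals 10 higher and 5 lower, and without control 4 it was 7 and 8. Among EGF receptor ligands, AREG, amphiregulin, fell from 437.1, 554.7 and 237.4 CPM to between 99.97 and 211.3 CPM (-1.39 ± 0.24 SE, adjusted p = 0.00202). Of 8 epithelial markers in the same sums 4 were lower and 0 higher, and the part of epithelial RNA in the fall of AREG was not tested. EREG fell from 26.5, 45.1 and 18.0 CPM to between 1.98 and 16.7 CPM (-2.01 ± 0.48 SE, adjusted p = 0.00986). RSPO1, which amplifies Wnt signalling, rose from 5.10, 5.06 and 6.10 CPM to between 11.7 and 20.4 CPM (1.41 ± 0.21 SE, adjusted p = 0.000652). FGF10, a mesenchymal growth factor for gland epithelium, stood at 3.15, 2.20 and 14.6 CPM in controls and at 16.6 to 29.4 CPM with TGFBRi. Its log2 difference of 1.56 ± 0.46 SE (adjusted p = 0.0282) was 2.95 without control 4, the highest control, and 1.21 without control 1, where the call was lost.

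ESR1, the oestrogen receptor, rose from 7.80, 6.09 and 8.13 CPM to between 11.7 and 18.1 CPM (1.08 ± 0.18 SE, adjusted p = 0.00163). PTH1R, the receptor for parathyroid hormone-related protein, rose from 12.6, 9.59 and 11.6 CPM to between 13.8 and 35 CPM (1.17 ± 0.28 SE, adjusted p = 0.00987). Of 12 genes of the IGF axis, 1 was higher and 2 lower, or 25% called against 32.2% of all genes. With library totals 3 were higher and 0 lower, and without control 4 or in core cells 2 and 2. IGF1 itself stood at 192.9, 179.8 and 296.5 CPM against 202.6 to 312.5 CPM (0.19 ± 0.20 SE, adjusted p = 0.53).

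**Figure D3:**
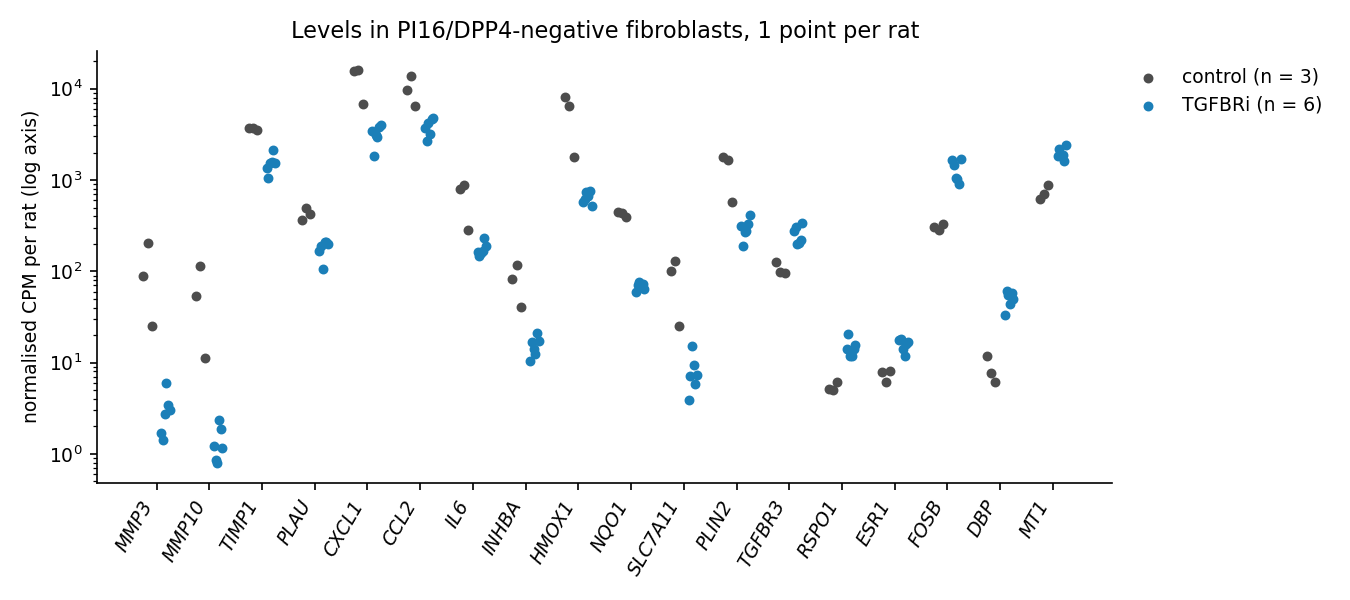
TMM-normalised CPM (log axis) of 18 genes in PI16/DPP4-negative fibroblasts, with 1 point for each of 3 control and 6 TGFBRi rats. In every gene shown the groups do not overlap, from MMP10, at 11.3 to 114.7 CPM in controls and 0.799 to 2.35 CPM with TGFBRi, to MT1, at 624.9 to 888.7 CPM and 1615 to 2389 CPM. The genes were picked for the figure, and some were named by a rule that asks for no overlap. Of all tested genes 24.8% did not overlap.

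The list of cholesterol, oxidative stress and metabolism genes moved both ways, with 7 of 26 tested genes lower, 5 higher, 46.2% called against 32.2% of all genes, and a median log2 difference of -0.01. With library totals 7 were lower and 7 higher, without control 4 it was 7 and 8, and in core cells 9 and 5. The lower ones were INSIG1, a brake on cholesterol synthesis (-0.60 ± 0.13 SE, adjusted p = 0.00649), and NQO1, HMOX1, SLC7A11, TXNRD1, GCLC and GCLM, which textbook accounts give as targets of the oxidative stress factor NRF2. NQO1, a quinone reductase, stood at 447.6, 439.7 and 396.5 CPM in controls and at 59.3 to 77.3 CPM (median 70.2) with TGFBRi, 6.22-fold lower (-2.64 ± 0.12 SE, adjusted p = 2.38e-07). HMOX1, haem oxygenase 1, stood at 8188, 6502 and 1798 CPM against 516.7 to 750.8 CPM, 8.50-fold lower (-3.09 ± 0.33 SE, adjusted p = 9.14e-05), and control 4 was the lowest control. SLC7A11, the cystine transporter, fell from 99.9, 129.6 and 24.9 CPM to between 3.89 and 15.2 CPM (-3.33 ± 0.44 SE, adjusted p = 0.000346), and by 4.16 without possible doublets. TXNRD1 was 2.88-fold lower, GCLC 4.00-fold and GCLM 2.68-fold, all without overlap. AKR1B8, named for its size of change and not in the list, an aldo-keto reductase of a family of similar genes whose reads can be shared, fell from 296.7, 370.3 and 172.3 CPM to between 12.2 and 27.8 CPM (-3.90 ± 0.27 SE, adjusted p = 1.99e-05).

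Among the 5 higher genes of the same list were MT1, ZBTB16 and PER1, known to be regulated by glucocorticoids or the clock. No list of glucocorticoid or clock genes was tested. MT1, a metallothionein, was 2.65-fold higher (1.41 ± 0.17 SE, adjusted p = 0.000199). ZBTB16 stood at 5.40, 2.07 and 11.8 CPM in controls and at 19.7 to 53.7 CPM (median 29.6) with TGFBRi (2.24 ± 0.46 SE, adjusted p = 0.00449), and at 3.09 without control 4. PER1 was 2.00-fold higher (adjusted p = 0.00280). DBP, a clock output gene outside the list, rose from 11.9, 7.78 and 6.10 CPM to between 33.3 and 60.5 CPM (2.57 ± 0.25 SE, adjusted p = 7.10e-05). The hour at which each gland was taken is not given in the sources used here.

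Immediate early genes, which also respond to tissue dissociation, held the largest share of calls of any list: 14 of 32 higher and 5 lower, against 15.4% and 16.8% of all genes, 11 higher and 5 lower in core cells, and 18 higher and 4 lower without control 4. FOSB stood at 303.6, 280.4 and 333.1 CPM in controls and at 908.8 to 1689 CPM (median 1269) with TGFBRi, 4.27-fold higher (2.09 ± 0.23 SE, adjusted p = 0.000114). FOS was 2.44-fold higher, JUND 2.17-fold, EGR1 1.90-fold and SOCS3 2.09-fold. KLF4 rose from 225.4, 182.8 and 350.8 CPM to between 574.3 and 806.4 CPM (1.37 ± 0.21 SE, adjusted p = 0.000966). BTG2 rose from 221.7, 225.7 and 582.7 CPM to between 700.7 and 1265 CPM (1.62 ± 0.31 SE, adjusted p = 0.00326), and by 2.22 without control 4.

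The members that fell were others of the same list. FOSL1, an AP-1 subunit, fell from 410.5, 342.9 and 251.0 CPM to between 70.5 and 111.3 CPM (-1.79 ± 0.17 SE, adjusted p = 6.85e-05). IER3 stood at 4724, 6371 and 2055 CPM against 739.4 to 1013 CPM, 5.12-fold lower, with a log2 difference of -3.03 without possible doublets. MYC fell by 0.64 ± 0.15 SE (adjusted p = 0.00922). HSPB1, a small heat shock protein, stood at 1019, 807.0 and 3743 CPM against 344.8 to 659.1 CPM, with a log2 difference of -1.93 that was -0.92 without control 4. Whether the glands were handled alike before and during dissociation is not given in the sources used here, and its part was not tested.

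Among genes that mark fibroblast states, 6 of 18 universal and adventitial genes were lower and 3 higher, and 4 of 23 parenchymal and lipid-handling genes lower and 2 higher. These are 50% and 26.1% called, against 32.2% of all genes. With library totals the first list had 4 lower and 3 higher, and the second had 4 lower and 5 higher without control 4 and 6 lower and 1 higher in core cells. Log2 differences in the first list ran from -1.73 to 0.95, with a median of -0.03, or 0.22 without control 4. CD55 fell from 37.5, 51.3 and 38.8 CPM to between 8.77 and 24.5 CPM (-1.25 ± 0.26 SE, adjusted p = 0.00530), and ANXA3 by 1.19 ± 0.26 SE (adjusted p = 0.00585), without overlap. DACT2 was lower by -1.73 ± 0.35 SE (adjusted p = 0.00413) with an overlap in control 4. PLIN2, the coat protein of lipid droplets, fell from 1779, 1668 and 578.5 CPM to between 188.3 and 411.6 CPM (median 293.5), 4.51-fold (-2.17 ± 0.30 SE, adjusted p = 0.000421), by 2.77 in core cells and by 2.96 without possible doublets. PENK, proenkephalin, fell from 427.9, 630.1 and 476.7 CPM to between 147.7 and 255.1 CPM (-1.34 ± 0.21 SE, adjusted p = 0.00104). ADM, adrenomedullin, was 3.26-fold lower and CEBPB 1.61-fold lower, the latter with overlap. EBF2, a regulator of adipose precursors, rose from 5.55, 5.70 and 8.62 CPM to between 12.1 and 20.0 CPM (1.31 ± 0.22 SE, adjusted p = 0.00135).

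The list of integrins and adhesion receptors also holds PDGFRB, PDGFA, PDGFC and PDGFD. Of its 28 tested genes 9 were lower and 4 higher, against 16.8% and 15.4% of all genes, and with library totals 5 were lower and 4 higher. VCAM1 fell from 134.5, 159.6 and 155.4 CPM to between 41 and 100.8 CPM (-1.19 ± 0.23 SE, adjusted p = 0.00358), and ITGA5, the fibronectin receptor subunit, by 0.76 ± 0.18 SE (adjusted p = 0.00927). PDGFRB rose from 67.2, 66.2 and 72.6 CPM to between 93.3 and 108.8 CPM (0.56 ± 0.11 SE, adjusted p = 0.00345) and NRP1 by 0.69 ± 0.16 SE (adjusted p = 0.0100). Interferon-stimulated and antigen-presentation genes were called about as often as all genes (33.3% against 32.2%), with 5 of 27 higher and 4 lower, or 6 higher and 3 lower with library totals. Their log2 differences ran from -1.87 to 1.02, with a median of -0.11, and GBP2 fell by 1.28 ± 0.15 SE (adjusted p = 0.000168). Of 44 S and G2/M phase genes, 2 were higher and 0 lower, or 4.55% against 32.2% of all genes, and 5 were higher without control 4 or with library totals.

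**Figure D4:**
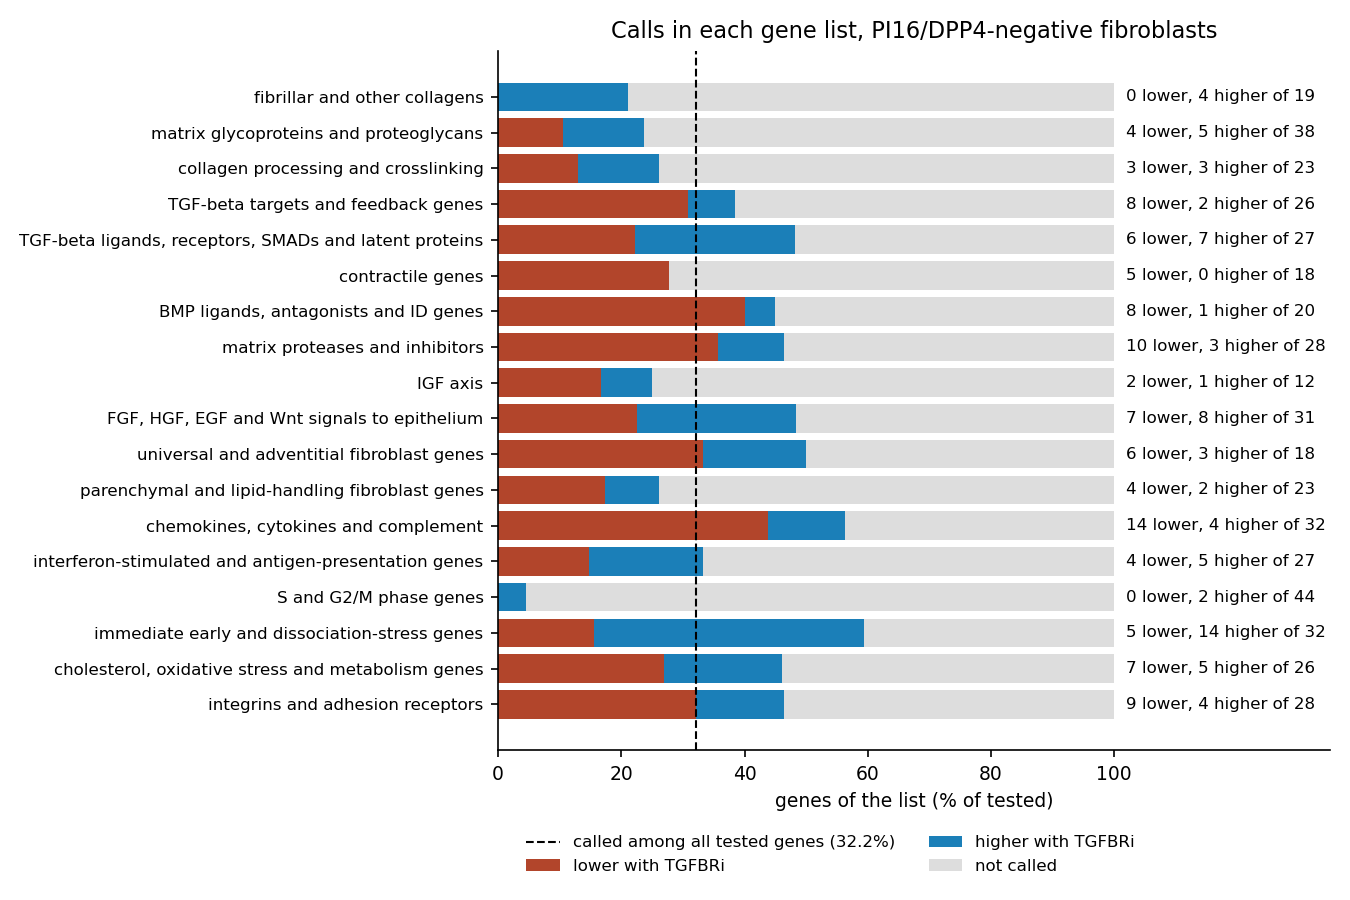
Percent of the tested genes of each of 18 lists that were lower, higher or not called with TGFBRi in PI16/DPP4-negative fibroblasts, with the counts at the right and a dashed line at 32.2%, the percent called among all tested genes. Chemokines (14 lower, 4 higher) and immediate early genes (5 lower, 14 higher) lie furthest above the line, and S and G2/M genes (0 lower, 2 higher) furthest below.

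The 10 genes with the largest increases, among those called, without overlap and with 20 or more UMIs per rat, were FGF16, HS3ST6, MUC13, FAM13A, DBP, TRERF1, RFX2, AC109886.1, FAM221A and IKZF4. FGF16, a fibroblast growth factor, stood at 2.40, 1.30 and 0.491 CPM in controls and at 7.53 to 15.5 CPM (median 11.7) with TGFBRi, 9.20-fold higher (3.20 ± 0.41 SE, adjusted p = 0.000312), and 3.79 without control 1. HS3ST6, a heparan sulphate sulphotransferase, stood at 0.750, 1.17 and 0.701 CPM against 1.94 to 13.2 CPM (3.06 ± 0.71 SE, adjusted p = 0.00917). FAM13A stood at 4.35, 3.50 and 5.54 CPM against 10.1 to 50.7 CPM, 6.01-fold higher (2.59 ± 0.43 SE, adjusted p = 0.00149). TRERF1 and RFX2, both encoding transcription factors, were 5.67-fold and 5.38-fold higher, and the log2 difference of RFX2 was 3.24 without possible doublets, as that of FAM221A was 3.02 in core cells. These are low levels: apart from FAM13A and DBP, no TGFBRi rat passed 21.4 CPM in any of the 10. The 10 largest decreases were those of MMP10, MMP3, MMP13, AKR1B8, CSF2, CXCL6, SLC7A11, DDIT4L, LOC497963 and HMOX1. DDIT4L fell from 19.9, 15.3 and 5.54 CPM to between 0.461 and 2.05 CPM (-3.19 ± 0.40 SE, adjusted p = 0.000259), and by 4.09 without possible doublets. LOC497963 was lower by -3.12 in all cells but by -1.58 in core cells (adjusted p = 0.173), and by -3.72 without TGFBRi 11.

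UMIs of other cell types' markers in these cells moved with treatment too. Against 16.8% lower and 15.4% higher of all genes, of 8 epithelial markers 4 were lower and 0 higher, of 8 endothelial markers 4 were lower and 0 higher, and of 7 leukocyte markers 3 were lower and 1 higher. The epithelial list took 0.0713% to 0.0994% of the UMIs in controls and 0.0305% to 0.0829% with TGFBRi, the leukocyte list 0.0432% to 0.0544% and 0.0235% to 0.0402%, and the endothelial list 0.0101% to 0.0227% and 0.00595% to 0.0112%. For the endothelial list control 4 was at the top, and controls 1 and 2, at 0.0101% and 0.0111%, lay within the TGFBRi range. Of 8 mural and 8 Schwann cell markers 1 each was lower and 0 higher, and of 7 tested adipocyte markers 1 was lower and 1 higher. The adipocyte list took 0.00597% to 0.0542% of the UMIs in controls, with control 4 at the top, and 0.0118% to 0.0309% with TGFBRi. EPCAM had a UMI in 8.42% of these cells and in 8.49% of the PTPRC cells, KRT8 in 8.27% and 7.19%, and the endothelial KDR in 4.81% and 2.14%. Sums over a group of cells cannot tell less RNA per cell from fewer cells of a kind within it. The part of RNA from outside the cells was not tested.

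The same contrast was computed in the PI16/DPP4-positive fibroblasts of the same rats, where 2554 of 13688 genes were called (18.7%). Whether the effect of treatment differed between both kinds of fibroblast was tested by the interaction term with rat as a block. It was called for 53 of 15665 genes (0.338%), with 13 more positive in the PI16/DPP4-negative cells and 40 more negative, while 1482 had an unadjusted p under 0.05. With no block for rat it was called for 0 genes. MMP3 fell by 5.03 in negative and by 3.26 in positive cells, a difference of -1.88 ± 0.33 SE (adjusted p = 0.0254). CSF2 fell by 3.58 in negative cells and stood at -0.63 in positive ones (difference -2.96 ± 0.59 SE, adjusted p = 0.0559), and the call was lost without control 1 or TGFBRi 14. FBLN1, a basement membrane and elastic fibre protein, averaged 128.1 CPM in controls and 167.1 CPM with TGFBRi in negative cells, where it was not called, but 176.6 and 98.5 CPM in positive cells, where it fell by 0.84 (difference 1.15 ± 0.15 SE, adjusted p = 0.00502).

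NR4A2, an immediate early nuclear receptor, differed by 0.95 ± 0.16 SE (adjusted p = 0.0202), and in the negative cells its own increase of 0.73 lost its call without control 1 or 2 and in core cells. FGF16 rose in negative cells while in positive cells it stood at 6.17 CPM in controls and 10.1 CPM with TGFBRi (difference 2.57 ± 0.50 SE, adjusted p = 0.0472). Without control 4 the FGF16 difference was 1.95 (adjusted p = 0.159), and it also lost its call without control 2. Control 4 decided the differences of PLIN1 and ADIPOQ, genes of adipocytes. PLIN1 stood at 0, 0.130 and 33.3 CPM in the controls, and its difference of -4.83 became -0.29 without control 4, while that of ADIPOQ turned from -3.10 to 2.90. The difference of HBB was as large without control 4 (2.74 against 2.52), but its call was lost (adjusted p = 0.121). That of SPP1 was 1.53 without control 4 (adjusted p = 0.176), and that of SLPI was -5.22 and stayed called (adjusted p = 0.0502). The calls of PLIN1 and ADIPOQ were also lost without TGFBRi 4, that of SPP1 without control 1 or TGFBRi 1, 4, 6 or 14, and that of SLPI without control 1 or 2 or TGFBRi 1, 2, 4, 11 or 14. Leaving out rats gave 34 genes (without control 1) to 127 (without control 4).

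The effect of treatment was also set beside that in leukocytes. In the cells with 2 or more PTPRC UMIs, a comparison added after the data were seen, 3444 of 15373 genes were called (22.4%), and the difference of effect to the PI16/DPP4-negative fibroblasts was called for 3233 of 16622 genes (19.5%). NQO1 fell by 3.04 and HMOX1 by 2.85 in the PTPRC cells, and neither difference was called (adjusted p = 0.339 and 0.994). CXCL1 fell by 2.21 there. Of the 32 chemokine-list genes 23 were lower and 0 higher in the PTPRC cells, with a median log2 difference of -1.31 against -0.30 in the fibroblasts, and the difference of effect was called for 7, against 19.5% of all genes. The part of fibroblast RNA in those cells, of which 20.4% held a UMI of COL1A1, was not tested.

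Several immediate early genes, and DBP of the clock, differed between both kinds of cell. FOSB was higher by 0.50 in the PTPRC cells against 2.09 in the fibroblasts (adjusted p of the difference = 0.000501), BTG2 by 0.19 against 1.62 (0.000867) and DBP by 0.54 against 2.57 (0.000911), while KLF4 stood at -0.51 against 1.37 (0.000685). Of 32 tested immediate early genes 18 differed, against 19.5% of all genes. TGFB2 stood at -0.60 in the PTPRC cells against 0.77 (0.000905), TGFBR3 at 0.09 against 1.26 (0.0292) and MT1 at 0.13 against 1.41 (0.00569). Among proteases 15 of 28 differed, with TIMP1 lower by -2.19 in the PTPRC cells and by -1.26 in the fibroblasts (0.0107).

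**Figure D5:**
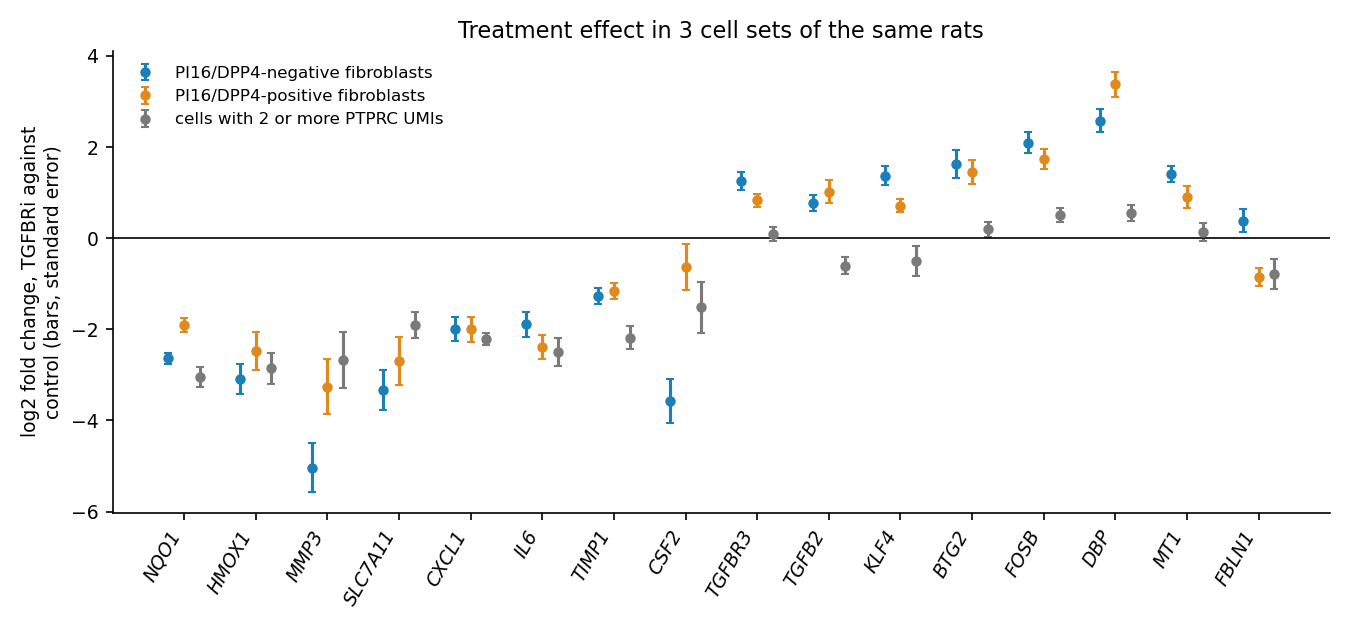
Log2 fold change of TGFBRi against control with its standard error for 16 genes in PI16/DPP4-negative fibroblasts, PI16/DPP4-positive fibroblasts and cells with 2 or more PTPRC UMIs of the same 9 rats. NQO1, HMOX1 and CXCL1 lie below -1.8 in all 3 sets, while FOSB (2.09) and DBP (2.57) in PI16/DPP4-negative fibroblasts lie above the PTPRC cells (0.50 and 0.54).

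How PI16/DPP4-negative cells differ from positive ones is partly set by the rule and is given without a test. Of 11230 genes with enough UMIs, 1572 were higher in the negative cells in every rat and 1323 lower. The largest median ratios were held by genes of other stromal cells. CCL19, a chemokine of lymphoid stroma, averaged 95.8 CPM in negative and 1.44 CPM in positive cells, with a UMI in 7.17% of negative cells. MYH11, TAGLN, ACTG2, DES and ACTA2, smooth muscle genes, and GFAP, a glial gene, were also among the 10, with SNCG and CCL21. Lower in negative cells were GAP43, CAR8, ACKR4, AKR1C3, TNFRSF11B, PCSK6, ABCA4, STMN4, EFHD1 and CLEC2L. TNFRSF11B, osteoprotegerin, the decoy receptor for RANKL, averaged 16.4 CPM in negative and 184 CPM in positive cells, with a UMI in 5.98% and 49% of them. ACKR4, a scavenger of CCL19 and CCL21, averaged 10.0 and 174 CPM.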

How the data were processed

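Whole mammary glands were digested and profiled unsorted with a 5′ droplet single-cell kit, and per the submitters' processing notes the reads went through Cell Ranger 7.0.0 on rn6 and Seurat 4.1.1. The authors deposited 1 table of UMI counts per rat, with genes in few cells and cells with few genes or much mitochondrial RNA already removed, and 18237 gene rows. Mitochondrial rows and cell type labels were not used here. No column of per-sample values was left unused (0).

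The study compared cells with a rank test. Here cells were taken by their UMIs of the rule's genes, counts were summed per rat, and the 3 control and 6 TGFBRi sums were tested with edgeR 4.0.16 in R 4.3.3 (TMM scaling, at least 10 UMIs over the sums, quasi-likelihood F test, Benjamini-Hochberg adjustment). The study's threshold of 0.1 on the adjusted p was kept. Differences between cell sets of the same rats were tested as an interaction with rat as a block. Shares and depths were compared by exact two-sided permutation tests (scipy 1.17.1). P-values measure the spread between rats that are separate animals. No doublet caller was run. Cells with 2 or more UMIs of another type's marker list, or in the top 5% of their library by UMIs, were left out in an alternative instead. DESeq2 1.42.0 was an alternative to edgeR.

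On simulated counts for the main comparison over 14994 genes, 62% of planted log2 changes of 1 and 98% of those of 2 were recovered, with 16 false calls. For the interaction over 15443 genes these were 75% and 98%, with 43 false calls. Both simulations planted 100 genes at each size, all with a mean of at least 20 UMIs per sum. Recovery of genes with fewer UMIs was not simulated. The main simulation changed far fewer genes than the 4899 called in the data. In the data the interaction called 53 genes.

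The members, the gene lists and the tests were chosen with earlier results of these data known. Genes are named when they are among the 10 largest changes in either direction (called, not overlapping, at least 20 UMIs per rat on average), belong to one of the 18 lists, are read by the rule, are among the 10 with the largest ratio to positive fibroblasts in either direction, or are among the 5 largest differences of effect in either direction. Fold changes are fitted by edgeR, and those of genes near 0 depend on its prior count. Numbers shared by rats of both groups (1, 2 and 4) did not pair them: correlations of their deviations were 0.0046, -0.141 and 0.100.

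The same rule in the SD sorted basal libraries left 1 of 3 control rats with at least 10 cells, so that comparison was not made. Some items are not reported here.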

Additional observations from a re-analysis of the deposited data

Results flagged for a closer look

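One TGFBRi rat stood apart in 1 of the 112 sets of TGFBRi values looked at, those of the named genes and of the shares and depths. MMP13 was at 1.48 CPM in TGFBRi 4 and at 0 to 0.124 CPM in the other TGFBRi rats, a gap of 0.917 of the group's range, past the critical value for 6 samples, which chance passes in about 1 of 20 groups. All 3 controls lay above TGFBRi 4.

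The effect of treatment differed between PI16/DPP4-negative and PI16/DPP4-positive fibroblasts for 53 genes by the interaction test (edgeR, adjusted p of 0.1 or less). The largest differences toward a higher value in the negative cells were 2.57 for FGF16, 2.52 for HBB, 1.84 for SPP1, 1.15 for FBLN1 and 0.95 for NR4A2 on the log2 scale. Toward a lower value they were -4.83 for PLIN1, -3.47 for SLPI, -3.10 for ADIPOQ, -2.96 for CSF2 and -1.88 for MMP3. Several of these changed when control 4 was left out. HBB, a haemoglobin chain, was at 1.5, 1.30 and 89.7 CPM in controls 1, 2 and 4, and without control 4 its difference was as large, at 2.74, but not called (adjusted p = 0.121). ADIPOQ, an adipocyte hormone, was at 0, 0.130 and 80.7 CPM, and without control 4 its difference was 2.90 (adjusted p = 0.694). PLIN1, a lipid droplet protein of adipocytes, was at -0.29 without it (adjusted p = 0.910). SLPI, a secreted protease inhibitor, was at 2.40, 11.3 and 61.6 CPM in controls and 0.691 to 12.1 CPM with TGFBRi, and its difference stayed called without control 4, at -5.22 (adjusted p = 0.0502). For FGF16 and SPP1 the values without control 4 were 1.95 (adjusted p = 0.159) and 1.53 (adjusted p = 0.176). FBLN1 kept its call without control 4, at 1.21 (adjusted p = 0.00369), as did NR4A2 at 0.69 (adjusted p = 0.0992), CSF2 at -3.11 (adjusted p = 0.0432) and MMP3 at -1.77 (adjusted p = 0.0138).

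The effect differed between the PI16/DPP4-negative fibroblasts and the cells with 2 or more PTPRC UMIs for 3233 genes, in a comparison added after the data were seen.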

How the results depend on the processing

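The count of 4899 genes stayed within 3368 (without control 2) and 5107 (without control 4) when each rat was left out and within 3778 and 5327 under the other scalings, filters, tools and cell rules, and the 5327 genes with library totals only held 3571 higher ones. With the shared rat numbers as a replicate block it was 2368, and 86 of the called named genes stayed called. The numbers did not pair the rats. Without possible doublets and in core cells 94 and 95 of them stayed called, without control 1 it was 96, and under each other alternative at least 99. Of 2152 alternative values of named genes, 10 reversed, all of genes not called, and of the differences of effect that of ADIPOQ, which was called, reversed without control 4. TGFBR2 was at -0.0098 with DESeq2, -0.0099 with RLE scaling, -0.019 with no filter, -0.23 without possible doublets and -0.16 in core cells. Leaving out rats moved TGFBR2 from -0.18 to 0.10, TGFBR1 from -0.15 to 0.26, ACTA2 from -0.55 to 0.22 and the ADIPOQ difference from -3.30 to 2.90. The difference in share of all cells ran from -7.34 to 0.865 percentage points and in share of fibroblasts from -2.24 to 0.997, which was 0.0516 with a marker sum of at least 10 UMIs and 0.623 after thinning. The difference in median UMIs per cell ran from -131 to 757. The 53 genes with a different effect became 34 to 127 without 1 rat, 136 with no filter on low counts, 99 with DESeq2 and 0 with no replicate block (edgeR, 624 at an unadjusted p under 0.05), and 3233 against PTPRC cells instead. Of 198 list medians 21 moved, 9 with library totals, 7 without control 4 and 0 with RLE scaling. The causes were not tested. Not run were the alternatives for the sorted basal cells, since 1 control rat had enough cells for a test. Depth limits genes of few UMIs, such as NOG and COL10A1, with means of 12.1 and 1.33 UMIs per rat.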
